A study of Mus musculus with 8 samples.

Results

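Solute carriers are the transporters named Slc, and the genes described here are 214 of the 334 rows with such a name in a table of 21291 gene rows measured in the kidneys of mouse embryos at E14.5. A row was taken when its name began with Slc, a family number, the letter a and a member number, and when its scaled count was at least 50 in 3 or more of 8 libraries. A scaled count is the estimated read count of a gene divided by a factor for the depth of its library. The rule leaves out families with other letters in their names (such as Slc35b), and it takes in 4 genes that are not carriers by name: the scaffold proteins Slc9a3r1 and Slc9a3r2, and Slc4a1ap and Slc7a6os.

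Each library was polyA-selected RNA from both kidneys of 1 embryo, snap frozen as a pair. The 4 control embryos were Six2-GFPcre tg/+; Etv4+/-; Etv5fl/fl, and the 4 mutant embryos were Six2-GFPcre tg/+; Etv4-/-; Etv5fl/fl. All 8 therefore carried the Cre transgene, driven in the nephron progenitors by Six2, and the floxed Etv5 alleles, and the groups differed by the Etv4 genotype alone as labelled. Controls also lacked 1 Etv4 copy, so no group was wild type. The library names carry a number, and the libraries are called after it here: N755 (controls 1 and 2, mutants 1 and 2), N775 (control 3), N759 (mutant 3) and N816 (control 4 and mutant 4). The labels do not say what the number marks. Replicates were separate embryos.

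The kidney is one of the richest sites of solute carriers. In the proximal tubule, carriers of the brush border take glucose, amino acids, phosphate, peptides and vitamins back from the filtrate, and carriers of the blood side pass them on or bring organic anions and cations in for secretion. Dividing progenitors, in contrast, rely on carriers that most growing cells share, such as those for glucose, large neutral and cationic amino acids and lactate, and every cell holds the mitochondrial carriers of the Slc25 family. Tubule segments appear in order during kidney development, so a kidney at this stage holds uncommitted progenitors beside the earliest tubules.

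Totals per library ran from 34114519 to 39548327 estimated counts, except in control 4, which held 15515139, of which 18.4% fell on Lars2 against 0.138% to 0.476% elsewhere. A floor of 3 counts equals 8.30 scaled counts in control 4 and 2.37 to 2.80 in the others, and it covers counting error only. Etv4 matched the labels: 2816, 2803, 2816 and 2311 scaled counts for controls 1 to 4, against 294, 281, 219 and 164 for mutants 1 to 4. The 4 Y-linked genes looked at summed to 3586 to 3716 scaled counts in the controls and 0 to 19.6 in the mutants, so sex and genotype cannot be told apart, and 10 of the 214 genes lie on the X chromosome. Progenitor markers (Six2, Cited1, Meox1, Eya1, Osr1 and Gdnf) were at 2654 to 7987 summed scaled counts in the mutants against 10863 to 23889 in the controls, with none at 0. In whole kidneys, fewer cells of a type and less RNA per cell cannot be told apart. Their part in any result on the carriers was not tested.

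Mitochondrial carriers held the largest share of the carrier expression. For levels, the scaled count was divided by the length in kilobases of the longest annotated transcript, which 211 of the 214 genes had. The median gene stood at 138.1 scaled counts per kilobase, averaged over 8 libraries. The ADP/ATP carrier Slc25a5 led with 12234 (lowest library 11392, highest 14458), followed by the phosphate carrier Slc25a3 with 9905 and the ADP/ATP carrier Slc25a4 with 9282. Slc25a39, tied to mitochondrial glutathione, came next at 4041, ahead of the zinc transporter Slc39a7 of the secretory pathway at 3002. The Slc25 family, with 38 of its 46 rows in the set, held 50.8% of the summed level per kilobase, and the 10 leading genes held 49.6%. These are levels, and none of the 5 named passed an adjusted limma test between genotypes or between name numbers.

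Of the 50 families with a row, 48 had a gene in the set and 16 had all of their rows in it. Slc13 and Slc28, which carry dicarboxylates and nucleosides, had none. In all 8 libraries 178 genes reached 50 scaled counts. Another 10 genes reached it only in control 4, mutant 3 and mutant 4 (Slc2a2, Slc5a1, Slc7a9, Slc9a2, Slc15a2, Slc22a6, Slc22a12, Slc23a1, Slc34a1 and Slc44a4), so these 10 entered through the libraries in which they were high. The organic cation transporter Slc22a3 reached 50 in no control and in 3 mutants. The threshold itself cut through a continuum: the third-highest library stood at 50.5 for Slc1a6 and 52.9 for Slc22a21, just inside, and at 48.2 for Slc27a2 and 47.9 for Slc2a9, just outside. For 5 genes (Slc30a4, Slc25a32, Slc26a6, Slc30a1 and Slc22a12) another, unnamed row of the table held identical values, so their reads may be shared between 2 gene models.

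The first comparison asked how carrier expression differed between Etv4-/- and Etv4+/- kidneys. Over all 8 libraries no carrier passed an adjusted p of 0.05, where 0.301% of the 14974 genes tested did. With limma's voom weights, 1 carrier passed (Slc30a3). The largest shifts with non-overlapping groups were higher values of the zinc transporter Slc30a3, the anion exchanger Slc26a7 and the vesicular inhibitory amino acid transporter Slc32a1, and lower values of the sodium-potassium-chloride cotransporter Slc12a2 in the mutants. Tests were limma fits with a mean-variance trend on log2(scaled count + 1), adjusted by Benjamini-Hochberg over all genes tested, and a fold change on this scale understates that of a low gene. Of the carriers, 211 could be tested, because Slc5a1, Slc22a12 and Slc34a1 did not reach 10 scaled counts in 4 libraries.

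Slc26a7 is a chloride and bicarbonate exchanger known from acid-secreting cells of the collecting duct. It had 282, 383, 222 and 238 scaled counts for controls 1 to 4, against 461, 533, 576 and 556 for mutants 1 to 4. Every mutant lay above every control, the mutant mean being 531 ± 50.1 and the control mean 281 ± 72.5 (SD, n = 4 each). This was a log2 fold change of 0.94 (standard error 0.18, limma adjusted p = 0.0748). Slc30a3 loads zinc into synaptic vesicles. It had 43.3, 55.3, 29.8 and 119 scaled counts for controls 1 to 4, against 192, 167, 267 and 227 for mutants 1 to 4. Again the groups did not overlap, although control 4 was well above any other control, and the log2 fold change was 1.94 (standard error 0.38, limma adjusted p = 0.0819). Without control 4 the limma adjusted p was 0.00788 and the log2 fold change 2.31.

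Slc32a1 loads GABA and glycine into vesicles and overlaps exons of an opposite-strand transcript, Gm14205, so reads of the pair could be mixed unless strand was used, and strand use is not stated. It had 109, 129.5, 88.5 and 113 scaled counts for controls 1 to 4, against 260.2, 182, 186 and 175 for mutants 1 to 4. Mutant 1 was the highest, and all mutants exceeded all controls. The log2 fold change was 0.86 (standard error 0.20, limma adjusted p = 0.112). The lysosomal nucleoside transporter Slc29a3 had 868, 922, 954 and 844 scaled counts for controls 1 to 4, against 1208, 1268, 1155 and 1085 for mutants 1 to 4. These ranges were narrow and apart, at a log2 fold change of 0.39 (standard error 0.09, limma adjusted p = 0.106). The glutamine transporter Slc38a3 had 161, 167, 129.5 and 185 scaled counts for controls 1 to 4, against 238, 252, 237 and 229 for mutants 1 to 4. Its groups did not overlap either, and its log2 fold change was 0.58 (standard error 0.15, limma adjusted p = 0.161).

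On the lower side, Slc12a2 brings sodium, potassium and chloride into cells across their blood-facing membrane. It had 8139, 5716, 7150.0 and 4342 scaled counts for controls 1 to 4, against 3630.3, 3767, 3112 and 2401 for mutants 1 to 4. All mutants lay below all controls, and the N816 library was the lowest of its group in each genotype. The log2 fold change was -0.96 (standard error 0.20, limma adjusted p = 0.101), with -0.88 within the N755 libraries and -0.85 between mutant 4 and control 4. Without control 4 the limma adjusted p was 0.0199 and the log2 fold change -1.12. The lactate and pyruvate carrier Slc16a1 had 2314, 1869, 2213 and 1854 scaled counts for controls 1 to 4, against 1667, 1644, 1458 and 1335 for mutants 1 to 4, so its groups were apart, with a log2 fold change of -0.43 (standard error 0.11, limma adjusted p = 0.141). Slc16a3, a lactate exporter of glycolytic cells, had 2067, 2171, 1753 and 1766 scaled counts for controls 1 to 4, against 1748, 1551, 1279.6 and 1617 for mutants 1 to 4. Here the groups came within a few scaled counts of each other, and the log2 fold change was -0.33 (limma adjusted p = 0.295).

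The myo-inositol transporter Slc5a3 had 847, 479, 732 and 648 scaled counts for controls 1 to 4, against 479.6, 516, 424 and 354 for mutants 1 to 4. Control 2 lay among the mutants, and the log2 fold change was -0.59 (limma adjusted p = 0.237). It shares exons on its own strand with Mrps6, so reads may be split between the pair. The sodium bicarbonate cotransporter Slc4a7 had 839, 748, 796 and 625 scaled counts for controls 1 to 4, against 593, 648, 591 and 606 for mutants 1 to 4. Only control 4 fell within the range of the mutants, and the log2 fold change was -0.30 (limma adjusted p = 0.324).

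**Figure D1:**
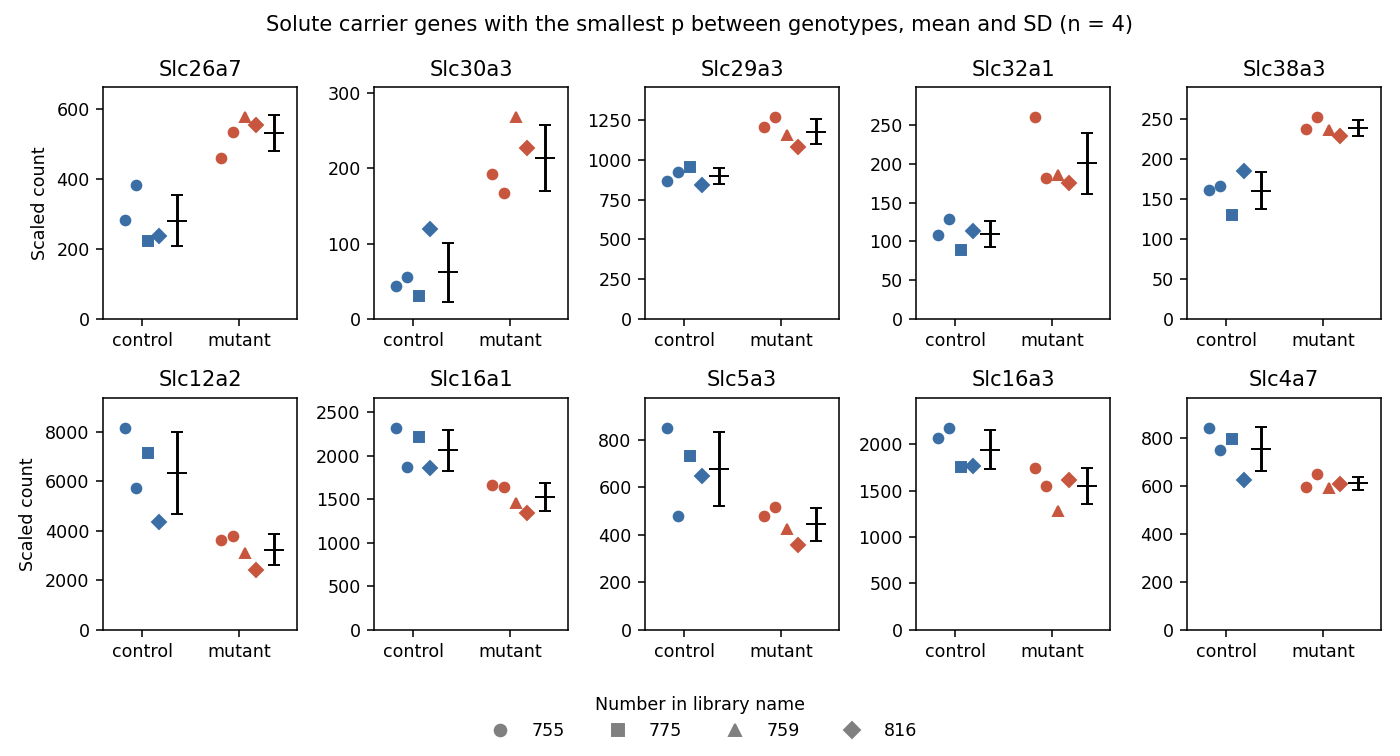
Scaled counts (y axis, from 0) in controls (blue) and mutants (red) for the 5 carriers higher and the 5 lower with the smallest p; each point is a library, its shape the number in the library name, and the black bar the mean with SD (n = 4). The groups stand apart in 8 of the 10 panels, with control 2 overlapping for Slc5a3 and control 4 for Slc4a7.

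Across the set the shifts were small. At an unadjusted p below 0.05, 19 carriers were higher in the mutants (9% of those tested, against 6.33% of all genes) and 7 were lower (3.32%, against 5.72%). The groups did not overlap, mutants above, for 13 carriers (6.16%, against 4.17% of all genes), and mutants below for 7 (3.32%, against 4.43%). The median log2 fold change was 0.084 over the carriers and 0.0087 over all genes, and 139 of 211 carriers were positive (65.9%, against 51.7% of all genes). Scaling by the library total instead moved the median of all genes to 0.14 and of the carriers to 0.22, with 177 positive, and turned the 19 higher and 7 lower at an unadjusted p into 35 and 1. The other carriers with groups apart and mutants above were the vitamin transporter Slc5a6, the iron transporter Slc11a2, Slc25a23, Slc25a45, the fatty acid transporter Slc27a1, the copper transporter Slc31a1, Slc39a7 and the magnesium transporter Slc41a3. Those with mutants below were Slc25a4, the glutamate carrier Slc25a22, the pyrimidine nucleotide carrier Slc25a33 and Slc35a4. 

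Among further carriers of small p, the phagosome metal carrier Slc11a1, a macrophage gene, had 51.6, 93.2, 69.0 and 108 scaled counts for controls 1 to 4, against 108, 113, 142 and 173 for mutants 1 to 4. Only control 4 reached the mutants, and the log2 fold change was 0.76 (limma adjusted p = 0.308). The macrophage markers (C1qa, C1qb, C1qc, Csf1r, Laptm5 and Adgre1) summed to 1775 to 2691 scaled counts in the controls and 3111 to 3419 in the mutants, with none at 0, and their part in the result was not tested. The orphan mitochondrial carrier Slc25a45 had 76.5, 99.5, 114 and 85.8 scaled counts for controls 1 to 4, against 166, 123, 129 and 198 for mutants 1 to 4, all mutants above all controls, at 0.70 (limma adjusted p = 0.239). Slc25a33 had 503, 464, 434 and 498 scaled counts for controls 1 to 4, against 418, 415, 337 and 251 for mutants 1 to 4, all mutants below all controls, at -0.44 (limma adjusted p = 0.331). Slc37a4 differed by 0.92 between genotypes (limma adjusted p = 0.273), with control 4 above both N755 mutants.

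The authors' deposited table of 644 genes lists 15 of the 214 carriers, 13 higher and 2 lower in the mutants, which is 7.01% of the carriers where the table holds 3.02% of all rows. These shares have unlike bases, since all 21291 rows include those below the count rule, so no excess of carriers can be read from them. Slc2a2, Slc9a2, Slc22a6, Slc23a1 and Slc44a4 are among the 15 and entered the set only through control 4, mutant 3 and mutant 4. In it Slc30a3 has a log2 fold change of 2.31 (adjusted p 3.02e-12) and Slc12a2 one of -1.11 (adjusted p 6.23e-10). Of the 15 in the authors' deposited table, only 5 had groups that did not overlap: Slc12a2, Slc26a7, Slc30a3, Slc32a1 and Slc38a3. The authors' deposited table also gives Slc2a2 a log2 fold change of 4.57 (adjusted p 0.0252) and Slc22a6 one of 4.97 (adjusted p 0.0361). For both genes control 4 stood above mutants 1 and 2, and limma gave adjusted p values of 0.69 and 0.604. The comparison by name number below called 10 of the 15.

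The second comparison set the 2 N816 libraries against the 4 N755 libraries, with genotype as a term, because these numbers occur in both genotypes. The proximal tubule carriers Slc22a6, Slc2a2 and Slc47a1 and the zinc importer Slc39a5 were higher in the N816 libraries by log2 differences of 5.58, 4.98, 3.78 and 4.36. The glucose carrier Slc2a1 and the cationic and large neutral amino acid carriers Slc7a1 and Slc7a5, which growing cells use, were lower. Slc22a6 and Slc2a2 were among the genes that entered the set through the libraries in which they were high. Of these 7 genes, only Slc39a5 still passed without control 4.

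Among the organic ion carriers, Slc22a6 takes organic anions from blood into proximal tubule cells. It had 0, 3.95, 7.45 and 166 scaled counts for controls 1 to 4, against 4.89, 18.8, 124 and 329.6 for mutants 1 to 4. Control 4, mutant 3 and mutant 4 were far above the other 5, of which control 1 held none. The fitted log2 difference was 5.58 (standard error 0.87, limma adjusted p = 0.0138), a value that depends on the added 1 since most N755 libraries held few counts. Slc47a1 passes organic cations into the urine. It had 3.68, 77.4, 57.8 and 304 scaled counts for controls 1 to 4, against 47.3, 64.5, 323 and 669 for mutants 1 to 4, with the same 3 libraries highest and control 1 near the floor. The log2 difference was 3.78 (standard error 0.93, limma adjusted p = 0.0393). Carnitine enters by Slc22a5, which had 324, 312, 423 and 456 scaled counts for controls 1 to 4, against 315, 372, 397 and 522 for mutants 1 to 4 and differed by 0.56 (limma adjusted p = 0.0488).

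Among the sugar carriers, Slc2a2 lets glucose leave the proximal tubule cell. It had 7.37, 15.8, 13.0 and 215 scaled counts for controls 1 to 4, against 4.89, 37.5, 276 and 826 for mutants 1 to 4. The order was again mutant 4, mutant 3 and control 4, all above 5 low libraries, with a log2 difference of 4.98 (standard error 0.78, limma adjusted p = 0.0138). Slc37a4, which moves glucose phosphate into the endoplasmic reticulum, had 313, 474, 318 and 774.9 scaled counts for controls 1 to 4, against 738, 553, 1035 and 1127 for mutants 1 to 4. Here mutant 1 approached control 4, and the log2 difference was 0.91 (standard error 0.20, limma adjusted p = 0.0282). Apical sodium glucose uptake by Slc5a1 could not be tested; it had 0.921, 3.95, 4.66 and 125 scaled counts for controls 1 to 4, against 0.816, 3.26, 67.1 and 279 for mutants 1 to 4.

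Among the metal, vitamin and peptide carriers, the zinc importer Slc39a5 had 26.7, 63.2, 41.9 and 659 scaled counts for controls 1 to 4, against 40.8, 62.0, 426 and 1387 for mutants 1 to 4. The 5 libraries outside N816 and mutant 3 spanned 26.7 to 63.2, and the log2 difference was 4.36 (standard error 0.39, limma adjusted p = 0.0037). It was the sole one of the 34 carriers called here to pass with each of the 6 libraries left out in turn. The brush-border vitamin C carrier Slc23a1 had 2.77, 15.0, 14.1 and 77.6 scaled counts for controls 1 to 4, against 9.01, 22.9, 53.0 and 164 for mutants 1 to 4, a log2 difference of 3.38 (limma adjusted p = 0.0267). The peptide carrier Slc15a2 had 24.4, 41.1, 38.2 and 147 scaled counts for controls 1 to 4, against 35.1, 22.5, 91.4 and 466 for mutants 1 to 4. Mutant 4 held more than 3 times any other library, and the log2 difference was 3.09 (limma adjusted p = 0.0138). The riboflavin carrier Slc52a3 had 47.9, 58.4, 79.2 and 232 scaled counts for controls 1 to 4, against 71.8, 65.3, 127 and 221 for mutants 1 to 4, where both N816 libraries were alike and the log2 difference was 1.89 (limma adjusted p = 0.0119). The metal importer Slc39a8 rose by 1.07 and the Golgi zinc carrier Slc30a7 by 0.61 on the log2 scale.

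Among the amino acid carriers, the cystine and dibasic amino acid exchanger Slc7a9 had 10.1, 24.5, 6.52 and 77.5 scaled counts for controls 1 to 4, against 22.0, 5.71, 69.7 and 141 for mutants 1 to 4. Its 3 high libraries were the same as for Slc22a6, and the log2 difference was 2.87 (standard error 0.68, limma adjusted p = 0.0364). The glutamate carrier Slc1a1 had 50.7, 6.32, 96.9 and 113 scaled counts for controls 1 to 4, against 61.2, 56.3, 137 and 374 for mutants 1 to 4. Control 2 was far below every other library, and the log2 difference was 2.61 (standard error 0.68, limma adjusted p = 0.0467). The GABA and betaine carrier Slc6a13 differed by 1.38, or by 0.70 and no longer past the threshold without mutant 4 (limma adjusted p = 0.213), and the neutral amino acid exchanger Slc1a5 by 1.17. The other carriers called higher were Slc9a2 (2.72), a sodium proton exchanger, the creatine carrier Slc16a12 (2.92), the choline transporter-like Slc44a4 (2.60) and Slc44a3 (0.85), and the scaffolds Slc9a3r1 (0.76) and Slc9a3r2 (0.48), which hold phosphate and proton carriers at the brush border. The log2 difference of Slc9a3r1 was 0.28 without mutant 4 (limma adjusted p = 0.199) and 1.24 without control 4.

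The phosphate carrier Slc34a1, the uric acid exchanger Slc22a12 and Slc5a1 were too rarely detected to test. Slc34a1 had 0, 0, 0.932 and 601 scaled counts for controls 1 to 4, against 0, 0, 131 and 1107 for mutants 1 to 4. Control 4 and mutant 4 held the most, mutant 3 less, and 4 libraries none. Slc22a12 had 1.38, 5.92, 2.40 and 111 scaled counts for controls 1 to 4, against 0.408, 0, 59.2 and 282 for mutants 1 to 4, with the same 3 libraries high.

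In the other direction, the cationic amino acid carrier Slc7a1 had 3862, 3442, 3706 and 1849 scaled counts for controls 1 to 4, against 3652, 3341, 2915 and 2516 for mutants 1 to 4. The N816 libraries were the lowest, then mutant 3, and the log2 difference was -0.73 (standard error 0.13, limma adjusted p = 0.0177). The large neutral amino acid exchanger Slc7a5 had 3368, 3397, 3250.2 and 2280.5 scaled counts for controls 1 to 4, against 4165, 3946, 3164 and 2838 for mutants 1 to 4. Control 4 was lowest and the log2 difference -0.54 (standard error 0.08, limma adjusted p = 0.0136). The glucose carrier of growing cells and red cells, Slc2a1, had 3572, 3533, 3107 and 2405 scaled counts for controls 1 to 4, against 3169, 3478, 2263 and 2285 for mutants 1 to 4. Control 4, mutant 3 and mutant 4 lay below the rest, with a log2 difference of -0.55 (standard error 0.09, limma adjusted p = 0.0138).

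The bicarbonate carrier Slc4a8 had 611, 519.7, 529 and 279.5 scaled counts for controls 1 to 4, against 564, 654, 469 and 438 for mutants 1 to 4; its log2 difference of -0.74 was the lowest of the 13 called lower (limma adjusted p = 0.0343). Slc12a2, whose groups stood apart between genotypes without passing the adjusted threshold, differed by -0.64 between name numbers (limma adjusted p = 0.0267). The phosphate carrier Slc20a1 differed by -0.60, the vitamin C carrier Slc23a2 by -0.60, the neutral amino acid carrier Slc38a1 by -0.52, the branched-chain amino acid carrier Slc25a44 by -0.49, the zinc importers Slc39a10 and Slc39a6 by -0.47 and -0.46, the potassium chloride cotransporter Slc12a7 by -0.40 and the amino acid carrier Slc38a4 by -0.35. None but Slc20a1 passed without control 4, where the log2 differences of Slc23a2, Slc25a44, Slc4a8 and Slc7a1 were -0.35, -0.31, -0.47 and -0.47. Without mutant 4, that of Slc20a1 was -0.37 (limma adjusted p = 0.0635).

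**Figure D2:**
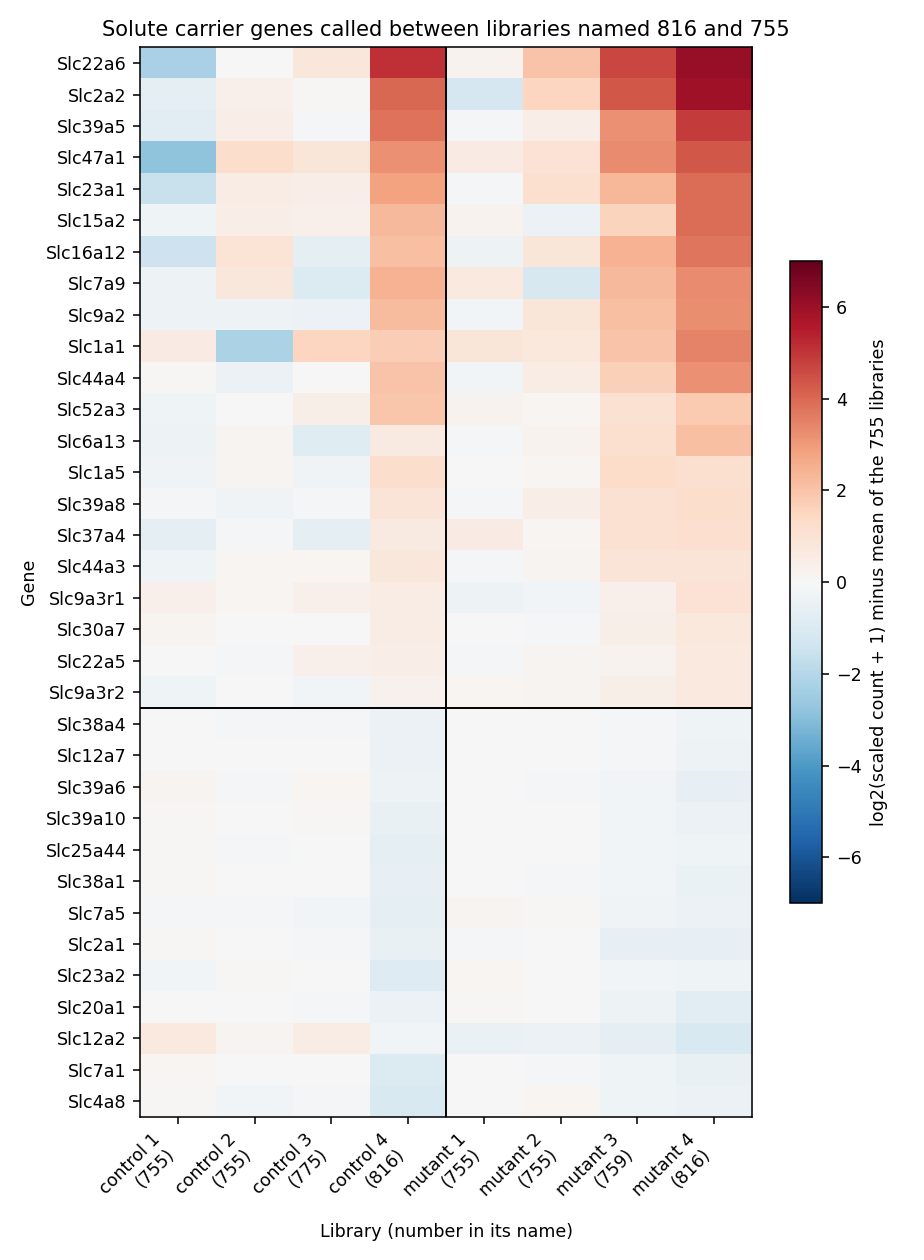
Log2(scaled count + 1) relative to the mean of the 4 N755 libraries, for the 21 carriers called higher (top) and 13 called lower (bottom) in the N816 libraries; columns are libraries with the number in their name, and red is higher. Mutant 3, which the fit did not use, is red like mutant 4 and control 4 in the upper rows with large differences, and control 3 mostly is not. For 7 of the 21 upper rows the count rule had fixed that mutant 3 lay above the N755 libraries. The colour scale spans the largest differences, so the lower rows and the upper rows with small differences are pale in every column.

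In all, 21 carriers were higher (9.95% of those tested, against 5.22% of all genes) and 13 were lower (6.16%, against 6.58%). Genes under the same count rule, 13197 of the 14974, were higher in 5.68% and lower in 7.36%. The 21 include 7 carriers that had entered the set through control 4, mutant 3 and mutant 4. Of the other 204 tested, 14 were higher (6.86%), close to the background, and the share called higher over the whole set is not a result about carriers. The count rests on few libraries, and it fell most when control 4 or mutant 1 was left out. Without control 4 it was 4 higher (1.9% of the carriers, against 0.948% of all genes) and 1 lower (0.474%, against 0.728%): Slc6a13, Slc9a3r1, Slc15a2 and Slc39a5 higher and Slc20a1 lower.

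Mutant 3 and control 3 were outside this fit. Mutant 3 lay above all 4 N755 libraries for 20 of the 21 carriers called higher. For 7 of these the count rule had fixed that order, since they entered the set with mutant 3 at 50 or more and every N755 library below it. Of the other 14, mutant 3 lay above for 13, where it did so for 82.1% of all genes called higher and for 26% of all genes tested. It lay below all 4 for 12 of the 13 called lower, where the share was 73.6% of genes called lower and 25.8% of all genes tested. The exceptions were Slc9a3r1 and Slc23a2. Control 3 lay above for 3 of the 21 (23.1% of genes called higher) and below for 4 of the 13 (17.8% of genes called lower). Whether the genotype difference itself differed between the N816 and N755 libraries was tested by an interaction: 0 carriers passed, against 0.347% of all genes, with a smallest adjusted p of 0.0914. At an unadjusted p below 0.05, 24 carriers stood out (11.4%), against 17.1% of all genes.

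By tubule segment, the proximal list held 53 carriers, of which 23 were in the set and 20 tested. Of these, 11 were higher in the N816 libraries (5.22% over all genes) and none lower, with a median log2 difference of 0.79 against -0.0038 over all genes. The 11 include 5 that entered the set through control 4, mutant 3 and mutant 4, where they were high. Of the other 15 tested, 6 were higher, with a median log2 difference of 0.56. Without control 4, 2 of the 20 were higher (Slc6a13 and Slc15a2). Their summed scaled counts, over 51 rows, came to 3695, 4082, 3964 and 7049 for controls 1 to 4, against 4923, 4727, 6745 and 11525 for mutants 1 to 4. Against genotype, the same 20 had 17 positive log2 fold changes (51.7% of all genes were positive) and a median of 0.59, and none passed the limma test. The count rule favours positive values for the 5 named above, since mutant 3 and mutant 4 were among their high libraries. Over the whole set, the median against genotype was 1.22 for the 7 tested carriers that entered in this way and 0.079 for the other 204. The proximal markers that are no carriers (Hnf4a, Cubn, Lrp2, Aqp1, Fbp1, Pdzk1, Ass1, Miox, Keg1, Gatm and Acsm2) summed to 794, 1792, 1377 and 6123 in the controls and 1717, 1958, 7092 and 16479 in the mutants. They moved with these carriers, and of 9 tested, 7 were higher in the N816 libraries, or 4 without control 4 (Cubn, Lrp2, Pdzk1 and Ass1). Not every marker moved in this way. Aqp1 and Gatm did not pass (log2 differences 0.55 and 0.49), and Aqp1 in mutant 3, at 504 scaled counts, lay below both N755 mutants. Miox was listed at 0 in 6 libraries. Their part in the result was not tested.

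The 9 proximal carriers tested and not called included ones already well detected in every library. The blood-side bicarbonate cotransporter Slc4a4 had 213, 245, 284 and 271 scaled counts for controls 1 to 4, against 194, 169.8, 287 and 363 for mutants 1 to 4, a log2 difference of 0.62 (limma adjusted p = 0.104). Both N816 libraries lay above the 4 N755 libraries, as did control 3 and mutant 3. The blood-side amino acid exchangers Slc7a8 and Slc7a7, which other cells also use, differed by -0.34 and -0.07. Slc38a3 differed by 0.04, the sulfate carrier Slc26a1 by 0.67, the fructose carrier Slc2a5 by 0.33 and the anion exchanger Slc26a6 by 0.18. Many brush-border carriers stayed below the count rule. The renal glucose carrier Slc5a2 had 0, 3.97, 0 and 50.1 scaled counts for controls 1 to 4, against 0, 0.920, 15.6 and 56.0 for mutants 1 to 4, at or near the floor outside control 4, mutant 3 and mutant 4. The lactate carrier Slc5a8 had 21.2, 0, 6.57 and 141 scaled counts for controls 1 to 4, against 3.26, 1.63, 28.8 and 325 for mutants 1 to 4, and the neutral amino acid carrier Slc6a18 had 0, 4.74, 0 and 91.3 scaled counts for controls 1 to 4, against 0, 0, 21.8 and 195 for mutants 1 to 4. The sodium proton exchanger Slc9a3 was above the floor in mutant 4 alone, at 27.2, and the organic anion carrier Slc22a8 reached 73.0 there.

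The other segments gave few calls. Of 3 loop carriers 2 were in the set, the urea carrier Slc14a2 and Slc5a3, and neither passed. The third, Slc12a1, stayed below the count rule. Some non-carrier markers of these segments were called higher in the N816 libraries: Irx1 of the loop (4.69), Emx1 of the distal tubule (1.61) and Aqp2 and Aqp3 of the collecting duct (3.61 and 1.56). These were 1 of 4, 1 of 4 and 2 of 7 tested, none lower. Without control 4, 0 passed. A rise in these libraries was thus not confined to proximal genes. The distal sodium calcium exchanger Slc8a1 differed by -0.36 in the N816 libraries and Slc41a3 by 0.08, neither called. In the collecting duct list, 1 of 3 tested carriers, Slc4a8, was lower, Slc26a7 differed by -0.15 and the anion exchanger Slc4a1 by -1.35 (limma adjusted p = 0.0943). Slc4a1 is also the band 3 protein of red cells. It had 835, 1164, 749 and 387 scaled counts for controls 1 to 4, against 935, 3848, 672 and 740.1 for mutants 1 to 4. Mutant 2 stood far above the rest, and the mitochondrial iron carrier Slc25a37 was likewise highest there at 1319.5 against 465 to 682 elsewhere. Red cell genes did not all follow: Alas2, which makes heme precursor, at 4410.1 scaled counts against 1592 to 3174 in the others, and the globin Hbb-bt, at 42355 against 21475 to 33088, were highest in mutant 2. The globin Hba-a1, at 147557 there, lay within the 85951 to 201211 of the others. Their part in the result was not tested. Of 5 erythroid, 6 macrophage and 3 neuronal list carriers tested, none was called in either comparison.

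Of the 10 carriers that serve amino acid supply in growing cells, 3 were lower in the N816 libraries (Slc7a1, Slc7a5 and Slc38a1) and 1 was higher (Slc1a5), where 6.58% of all genes were lower and 5.22% higher. Without control 4, none of the 10 passed in either direction, nor did any of the glucose and lactate carriers. Their summed scaled counts were 19038 and 19984 in control 4 and mutant 4 against 22385 to 26037 in the other 6 libraries. Of 4 glucose and lactate carriers, Slc2a1 was lower, and all 4 had mutant 3 below the N755 libraries. Ureteric tip markers were lower in the N816 libraries, though their part was not tested: 4 of 5 (Ret, Gfra1, Etv5 and Sox8) were called lower and none higher. Progenitor markers were also lower in these libraries: 3 of 6 (Six2, Eya1 and Gdnf) were called lower and none higher, and 2 of them (Six2 and Eya1) without control 4. Their part in the result was not tested.

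Carriers of the same family were called in opposite directions. In 4 families (Slc2, Slc7, Slc23 and Slc39) there were calls on each side, and without control 4 this held in 0 families. In Slc2, Slc2a2 was higher and Slc2a1 lower. In Slc23 the pair were Slc23a1, higher, and Slc23a2, lower, which had 790.3, 946, 903 and 482 scaled counts for controls 1 to 4, against 1008, 910.0, 809.9 and 751 for mutants 1 to 4. In Slc7, Slc7a9 was higher and Slc7a1 and Slc7a5 lower, and in Slc39, Slc39a5 and Slc39a8 were higher and Slc39a6 and Slc39a10 lower. Slc2a2, Slc7a9 and Slc23a1 entered the set only through control 4, mutant 3 and mutant 4, so the count rule favoured their higher calls. Each was the only carrier called higher in its family, so opposite calls free of this rule were left in Slc39 alone. Carriers were called higher in 15 families and lower in 9. The mitochondrial Slc25 family, with 38 tested, had 1 lower (Slc25a44) and none higher.

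**Figure D3:**
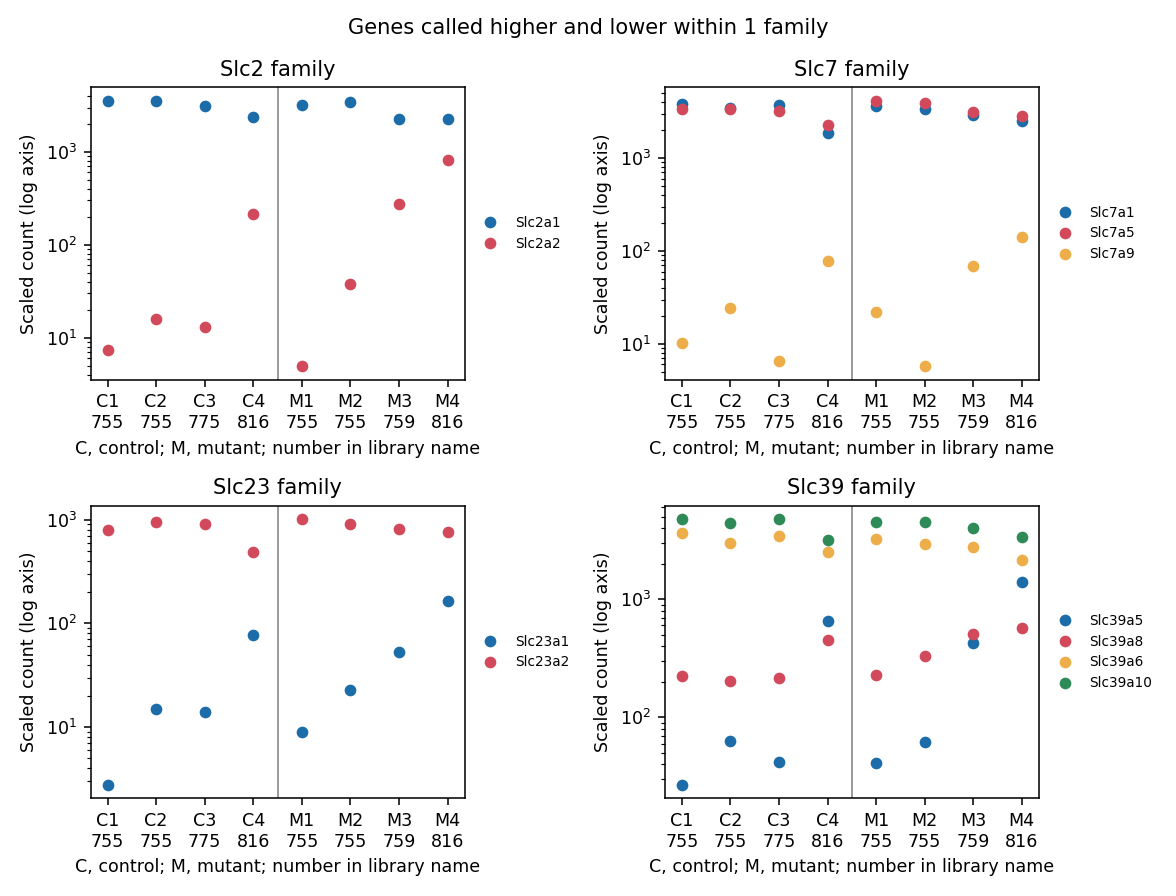
Scaled counts on a log axis for the carriers called in both directions within Slc2, Slc7, Slc23 and Slc39, in each library. C is control, M is mutant, and the number in the library name stands below. Slc2a2, Slc7a9 and Slc23a1 entered the set only through C4, M3 and M4, so the count rule favoured their higher calls. Within each family, genes called higher lie above their N755 values in C4 and M4 while those called lower lie below them, as for Slc2a2 and Slc2a1; of the 11 genes, only Slc39a5 passed without control 4.

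**Figure D4:**
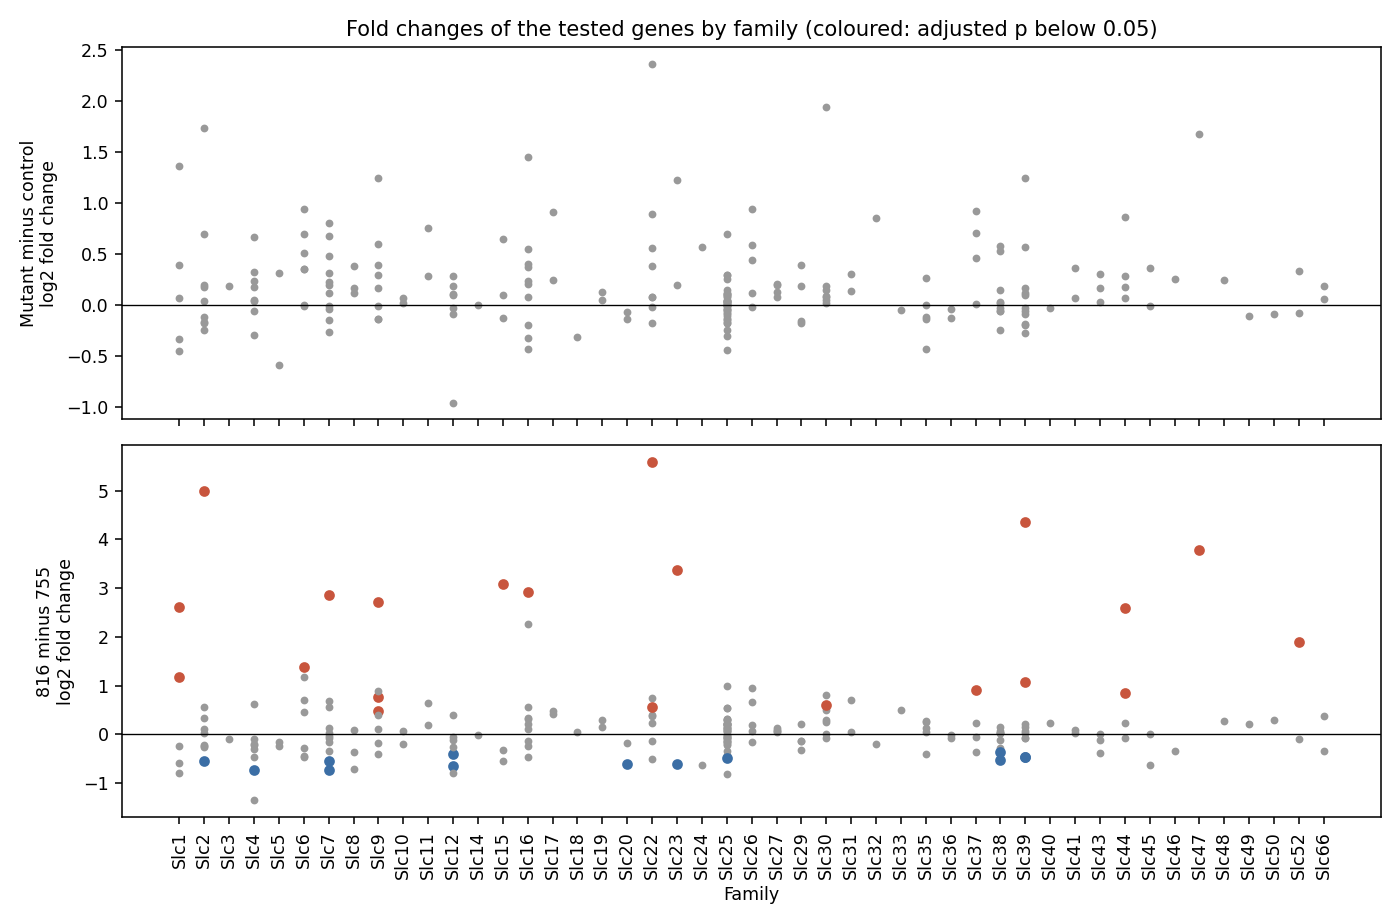
Log2 fold change of each of the 211 tested carriers (y axis) by family (x axis), for mutant minus control (top) and N816 minus N755 libraries (bottom); coloured points passed an adjusted p of 0.05, red higher and blue lower, and grey did not. No point is coloured in the top panel, and 34 are coloured in the bottom panel.

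Promoter windows are shown for 3 carriers with large differences upward and 2 called lower, picked after their values were seen, to set both directions side by side. The 2 called lower were taken from the families with calls on each side (Slc2, Slc7, Slc23 and Slc39). A window is the 250 bases before the gene start in RefSeq (GRCm38.p6), 5′ to 3′ on the gene's strand, and 161 of the 214 carriers had 1. Where a gene had more than 1 window the first listed was used, and Slc39a5, Slc7a1 and Slc23a2 had 2 each. For Slc22a6 and Slc23a2 the bases just after the RefSeq start were not found in a GENCODE transcript, so their starts are less certain. Capitals mark the letters GTTAAT, the half-site bound by HNF1 factors.
Slc22a6, higher in N816 (chr19:8617746-8617995, plus strand): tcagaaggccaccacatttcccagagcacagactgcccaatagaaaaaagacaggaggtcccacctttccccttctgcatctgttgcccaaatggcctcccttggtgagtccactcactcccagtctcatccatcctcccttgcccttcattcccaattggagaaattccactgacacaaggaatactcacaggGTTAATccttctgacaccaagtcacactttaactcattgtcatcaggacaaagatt
Slc2a2, higher in N816 (chr3:28697653-28697902, plus strand): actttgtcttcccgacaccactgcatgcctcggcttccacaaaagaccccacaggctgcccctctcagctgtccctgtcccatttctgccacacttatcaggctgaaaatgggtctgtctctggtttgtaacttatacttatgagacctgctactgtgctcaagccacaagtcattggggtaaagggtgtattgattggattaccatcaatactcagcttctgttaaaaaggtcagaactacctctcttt
Slc39a5, higher in N816 (chr10:128401225-128401474, minus strand): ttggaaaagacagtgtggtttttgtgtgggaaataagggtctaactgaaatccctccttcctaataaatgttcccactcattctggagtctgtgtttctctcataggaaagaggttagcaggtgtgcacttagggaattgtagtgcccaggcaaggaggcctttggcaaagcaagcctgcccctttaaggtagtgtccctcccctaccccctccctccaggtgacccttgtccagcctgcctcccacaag
Slc7a1, lower in N816 (chr5:148399905-148400154, minus strand): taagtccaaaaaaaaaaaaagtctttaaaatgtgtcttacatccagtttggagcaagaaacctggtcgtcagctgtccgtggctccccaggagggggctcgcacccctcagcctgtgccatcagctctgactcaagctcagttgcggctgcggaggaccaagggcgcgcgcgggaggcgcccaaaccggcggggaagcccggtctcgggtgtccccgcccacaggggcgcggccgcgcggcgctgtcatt
Slc23a2, lower in N816 (chr2:132145321-132145570, minus strand): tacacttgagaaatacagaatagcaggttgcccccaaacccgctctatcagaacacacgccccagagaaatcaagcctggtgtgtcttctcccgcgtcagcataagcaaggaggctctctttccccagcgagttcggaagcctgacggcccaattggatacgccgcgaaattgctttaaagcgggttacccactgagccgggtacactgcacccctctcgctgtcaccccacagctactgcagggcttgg

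The 3 windows of higher genes held 0, 2 and 0 CpG pairs (Slc22a6, Slc2a2 and Slc39a5) and the windows of the lower genes 21 and 13 (Slc7a1 and Slc23a2). Over the 16 higher genes with a window the median was 11 CpG pairs and over the 8 lower ones 14, against 13 over the 161 carriers and 6 over all 27025 genes with a window, so the 3 printed windows of higher genes lie below all of these medians, and Slc23a2 lies at the median of the carriers. GTTAAT, searched on both strands, was found in 1 of the 16 higher (Slc22a6, 56 bases before the start), 0 of the 8 lower, 3.73% of the carriers and 6.52% of all windows. The HNF4 repeat CAAAGTCCA was found in none of the carriers and 0.381% of all windows. The ETS core CCGGAAGT, the kind of site Etv4 binds, was found in 1.86% of the carriers and 2.93% of all windows, and in none of the windows of carriers called by name number.

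Positions of the carriers the genotype comparison turns on are given in GRCm38 (GENCODE M21): Slc26a7 (ENSMUSG00000040569, chromosome 4, 14502430 to 14621805, minus strand), Slc30a3 (ENSMUSG00000029151, chromosome 5, 31086106 to 31108237, minus strand), Slc32a1 (ENSMUSG00000037771, chromosome 2, 158610767 to 158615748, plus strand), Slc29a3 (ENSMUSG00000020100, chromosome 10, 60712072 to 60752794, minus strand), Slc38a3 (ENSMUSG00000010064, chromosome 9, 107650634 to 107669530, minus strand), Slc12a2 (ENSMUSG00000024597, chromosome 18, 57878678 to 57946821, plus strand) and Slc16a1 (ENSMUSG00000032902, chromosome 3, 104638668 to 104658462, plus strand). For the second comparison, Slc39a5 is ENSMUSG00000039878, chromosome 10, 128395931 to 128401229, minus strand, Slc22a6 is ENSMUSG00000024650, chromosome 19, 8618039 to 8628299, plus strand, Slc2a2 is ENSMUSG00000027690, chromosome 3, 28697903 to 28731359, plus strand, Slc7a1 is ENSMUSG00000041313, chromosome 5, 148327410 to 148399904, minus strand and Slc2a1 is ENSMUSG00000028645, chromosome 4, 119108711 to 119137983, plus strand. All are protein coding, and the values are sums over transcripts of the gene.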

How the data were processed

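Per the labels' protocols, polyA-enriched kidney RNA was sequenced in paired reads on an Illumina instrument. The submitters' processing notes list the tools kallisto 0.46.0, fastp 0.23.2 and DESeq2 1.40.2 and the mm10 build, without their order or settings. The deposited table holds log2 values, whose form, judged from the values, is log2(estimated count + 1) with no depth correction: 73.4% of 2^value - 1 are whole within 1e-06. The authors' deposited table of 644 genes gives log2 fold changes and adjusted p-values. Per the file headers, the authors also list there a mean normalized signal and a test score, neither of which was used.

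Undoing the log gave estimated counts, which were scaled here by median-of-ratios factors. Genes at 10 or more in at least 4 libraries (14974) were tested with limma 3.58.1 (R 4.3.3; eBayes with trend) on log2(scaled count + 1), two-sided, Benjamini-Hochberg adjusted at 0.05. Count models were not run here, although undoing the log gave estimated counts to which one could be applied. The first comparison used all 8 libraries. The second used the 6 N755 and N816 libraries, with genotype, and 2 libraries against 4 carry little replication for N816. Other alternatives are in the closing section. The fits were tested on simulated counts, where false calls in the second comparison were more frequent than its threshold allows.

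Genes named are those called (up to 12 per direction by fold), the 5 of smallest p per direction between genotypes, the segment lists and those nearest the count threshold; the other called carriers were named after their values were seen. The carriers, lists and tests were chosen with earlier results of these data known. Same-numbered replicates of the 2 groups did not deviate together in every pair (correlations 0.266, 0.0983, -0.126 and 0.348 over genes), so numbers were not taken as pairs.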

Additional observations from a re-analysis of the deposited data

Results flagged for a closer look

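Of 112 groups of 4 libraries looked at (56 carriers in 2 genotypes), 19 had a library set apart from the other 3 by a gap beyond Dixon's critical value, where chance flags about 1 in 20 in groups not chosen for their values. Control 4 was the library in 14 of the 19. These carriers were chosen partly for their values: 11 of the 14 were called in the N816 comparison, which uses control 4, and 9 of the 14 entered the set only through control 4, mutant 3 and mutant 4, so the number cannot be read against chance. It was high for Slc22a6 (166.1 scaled counts, the other controls 0 to 7.46), Slc2a2 (215, others 7.37 to 15.8), Slc39a5 (658.7, others 26.7 to 63.2), Slc23a1 (77.6, others 2.77 to 15.0), Slc15a2 (146.7, others 24.4 to 41.1), Slc9a2 (96.9, others 14.9 to 15.8) and Slc44a4 (138.4, others 24.5 to 35.9). It was also high for Slc52a3 (232.5, others 47.9 to 79.2), Slc34a1 (600.6, others 0 to 0.932), Slc5a1 (124.5, others 0.921 to 4.66), Slc22a12 (110.7, others 1.38 to 5.92) and Slc39a8 (453.9, others 203.8 to 223.8).

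Control 4 was low for Slc7a5 (2280, others 3250 to 3397) and Slc12a7 (1198, others 1597 to 1647). Mutant 4 was high for Slc15a2 (465.9, others 22.5 to 91.4) and Slc34a1 (1107, others 0 to 130.6). Mutant 1 was high for Slc32a1 (260.2, others 174.9 to 186.4), mutant 2 for Slc4a1 (3848, others 672.3 to 934.7) and control 1 for Slc7a7 (731.4, others 491.2 to 510).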

How the results depend on the processing

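Between genotypes, 0 carriers passed in either direction under both other filters, both other pseudocounts (0.5 and 5), both other scalings, no trend, the library number as a block, and with carriers of the X and Y left out. Library weights gave 7 higher and 3 lower, voom 1 higher, and the mean of the proximal markers as a covariate 3 higher and 1 lower. Leaving out both N816 libraries gave 1 higher and 1 lower, and leaving out control 4, mutant 3 and mutant 4 gave 1 and 2. Leaving out 1 library at a time gave 0 to 1 higher and 0 to 1 lower, with the calls made without control 2 (Slc26a7 higher) and without control 4 (Slc30a3 higher and Slc12a2 lower). With the replicate number as a block, although the numbers did not pair the samples, 1 carrier was lower (Slc12a2) and 0 were higher.

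For the N816 against the N755 libraries, where 21 were higher and 13 lower, no filter gave 1 and 0, no trend 0 and 0, library weights 2 and 0, and scaling by the library total 8 and 4, with the median of all genes at -0.208. Leaving out 1 library at a time gave 4 to 20 higher and 1 to 15 lower, the fewest of both without control 4. The counts without each of the others were 16 and 7 (control 1), 20 and 9 (control 2), 7 and 1 (mutant 1), 9 and 4 (mutant 2) and 9 and 15 (mutant 4). None of the 34 passed every alternative and none changed sign in any of the 15. The causes were not tested. A replicate block was not run here, because replicate 4 is the N816 libraries. The count rule gave 215 carriers under scaling by the library total and 201 with 50 required in 4 libraries. Depth limits control 4 most, at 15515139 counts.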
